A study of Homo sapiens with 4 samples.

Results

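The nuclear-encoded subunits of the mitochondrial respiratory chain and ATP synthase were read for m6A in C643 cells. Their genes were taken from the annotation by symbol (NDUFA, NDUFB, NDUFC, NDUFS and NDUFV with a number, SDHA to SDHD, UQCR, the COX4 to COX8 subunits, and ATP5), which gave 87 of 20046 protein-coding genes. Genes that hold no site were kept in every count. The symbols also matched 2 readthrough genes that run into a neighbour, and these were left out. The symbols miss subunits named otherwise, among them CYC1, the cytochrome c1 of complex III, which held 3 sites, and NDUFAB1, the acyl carrier protein in complex I, which held none, and neither is counted among the 87 genes.

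C643 is a cell line derived from an anaplastic thyroid carcinoma, a dedifferentiated tumour of the thyroid. The cells were untreated wild type, their polyadenylated RNA was purified in 3 biological replicates, and replicate 1 was sequenced as 2 technical libraries, so that 4 libraries stand behind the data. In miCLIP2 the fragmented RNA is crosslinked to an anti-m6A antibody and cDNA synthesis stops at the crosslink, which places the modified adenosine to the nucleotide, and the m6Aboost classifier then decides which peaks at an adenosine count as m6A and gives each a score between 0 and 1. The authors' list pools all replicates into 18789 sites, from peaks that had to be found in at least 2 replicates. It carries neither read depth nor values per replicate, so no replicate error can be given. A gene may lack sites because its reads were too sparse to call a peak. Expression was not analysed here, and thyroid markers could therefore not be checked.

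The respiratory chain passes electrons from NADH and succinate to oxygen and pumps protons across the inner mitochondrial membrane, and ATP synthase lets the protons flow back to make ATP. Complex I oxidises NADH, complex II oxidises succinate, complex III hands electrons to cytochrome c, complex IV reduces oxygen, and complex V is ATP synthase. A few core subunits are encoded in mitochondrial DNA, while the nuclear genes studied here mostly give short, constitutively expressed mRNAs whose proteins are imported into the organelle. m6A is placed on nascent mRNA by the METTL3 methyltransferase complex, chiefly within DRACH (where D is A, G or T, R is A or G, and H is A, C or T), and it is known to be common in long exons and near stop codons and sparse close to exon junctions.

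In all, 23 of the 87 genes (26.4%, 95% Wilson interval 18.3 to 36.6) held at least 1 site in an exon on their strand, against 19.6% of all protein-coding genes, and 64 held none. The 23 genes together held 40 sites, which is 0.213% of the list, whereas the 87 genes make up 0.434% of all protein-coding genes. The 87 genes are mostly short. Of the DRACH motifs in their canonical transcripts, 1.23% were listed as sites, compared with 1.18% in other protein-coding genes. A single site was held by 12 genes, 6 genes held 2, 4 genes held 3, and COX7A2L held 4. The median was 1 site per gene with a site, compared with 3 in the other 3915 protein-coding genes with a site, of which 39.8% held more than 4. The interval of the share of genes with a site includes the value of all genes. All intervals cover counting only, since sites and motifs within a gene are not independent.

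The sites are shown as 21 nt of the RNA strand, read from GRCh38 and written with T, for the 5 genes with the most sites. These also include the 3 sites with the highest scores of all 40. Capitals mark the pentamer around the adenosine, with the listed A in its middle. COX7A2L, a supercomplex factor related to a subunit of complex IV, and NDUFV3, an accessory subunit at the NADH-binding end of complex I, held these sites.
COX7A2L, chr2:42350898-42350918 (- strand), score 0.97: gacctcagGGACTtgaggttg
COX7A2L, chr2:42351262-42351282 (- strand), score 0.657: tgtgggagGGACCatctactg
COX7A2L, chr2:42351274-42351294 (- strand), score 0.746: catggcgcTGACTgtgggagg
COX7A2L, chr2:42361163-42361183 (- strand), score 0.716: gggaagccGGACTctgggcgt
NDUFV3, chr21:42903360-42903380 (+ strand), score 0.768: gtcaagaaAGACTttggtaga
NDUFV3, chr21:42903869-42903889 (+ strand), score 0.815: aagttaaaGGACCcttacctg
NDUFV3, chr21:42908954-42908974 (+ strand), score 0.885: tcaacctcGAACTctcaaaat

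ATP5F1B, the catalytic beta subunit of ATP synthase, and ATP5F1D, the delta subunit of its central stalk, each held 3 sites.
ATP5F1B, chr12:56638294-56638314 (- strand), score 0.606: tgtcctctGTACTgtctctct
ATP5F1B, chr12:56639250-56639270 (- strand), score 0.816: gtatggatGAACTttctgagg
ATP5F1B, chr12:56644928-56644948 (- strand), score 0.503: cacagtaaGGACTattgctat
ATP5F1D, chr19:1244168-1244188 (+ strand), score 0.609: gacatgttGGACCtgggggtg
ATP5F1D, chr19:1244318-1244338 (+ strand), score 0.598: gccaaggcAAACTtggagaag
ATP5F1D, chr19:1244607-1244627 (+ strand), score 0.905: agctctggGGACTgggccagg

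The remaining gene with 3 sites was NDUFS3, a core subunit of the peripheral arm of complex I. Its sites lay outside its canonical transcript, in exons that it shares with the neighbouring gene PTPMT1, a mitochondrial phosphatase, so they count for NDUFS3 only through an extended annotated transcript and cannot be assigned to either gene.
NDUFS3, chr11:47565719-47565739 (+ strand), score 0.696: gcgcaccgGGACTggtaccac
NDUFS3, chr11:47571596-47571616 (+ strand), score 0.806: aaaggatgGGACTtttgtcat
NDUFS3, chr11:47571639-47571659 (+ strand), score 0.882: attagaaaGAACTcaagacac

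Within these genes the scores varied between places in the transcript. The COX7A2L site with the highest score of all 40 (0.970) lay 313 nt after the start of the stop codon, in a last exon of 2022 nt. Its gene also held 2 sites near the end of the coding sequence (CDS) (scores 0.746 and 0.657) and 1 at nucleotide 45 of the transcript (0.716). The ATP5F1D site in the 3′ UTR scored 0.905, whereas its sites on both sides of the last exon junction, 8 and 14 nt from it, scored 0.609 and 0.598. In NDUFV3, 2 sites (0.768 and 0.815) fell in an internal exon of 1095 nt, which is far longer than most internal exons and is included in the long isoform of the protein, and the other one (0.885) lay in the last exon, 55 nt before the stop codon. In ATP5F1B the scores were 0.816 in exon 9, 0.606 in the 3′ UTR and 0.503 in exon 3.

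**Figure D1:**
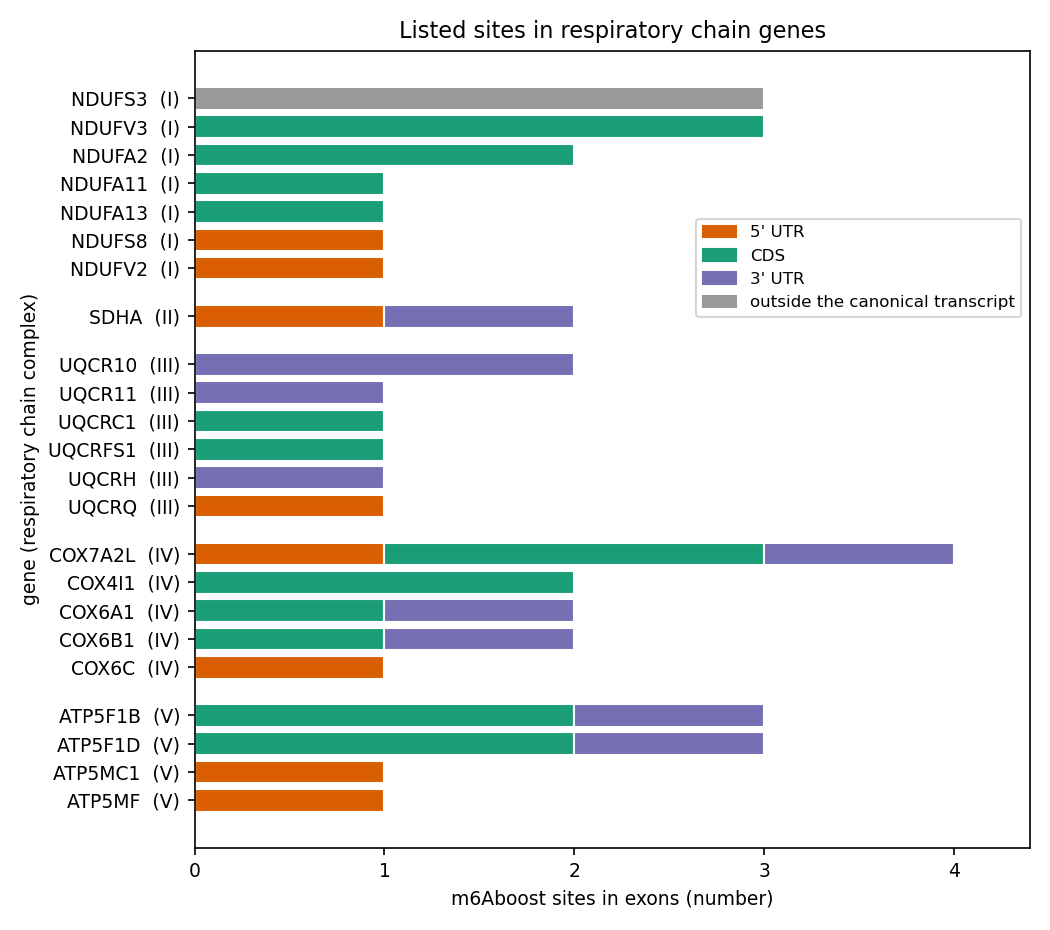
Number of listed m6A sites (x axis) in each of the 23 respiratory chain genes with at least 1 site (y axis, complex in brackets), coloured by region of the canonical transcript. COX7A2L held 4 sites, and the 3 NDUFS3 sites lay outside its canonical transcript.

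The complex was read from the gene symbol alone. Every NDUF gene was thus counted for complex I, including NDUFA4 and NDUFA4L2, which held no site, even where the protein may belong to another complex. By complex, complex I had sites in 7 of 38 genes (18.4%, interval 9.22 to 33.4), complex II in 1 of 4, complex III in 6 of 9 (66.7%, 35.4 to 87.9), complex IV in 5 of 17 (29.4%, 13.3 to 53.1) and complex V in 4 of 19 (21.1%, 8.51 to 43.3). The interval of complex III lay above the share of all protein-coding genes and above the interval of complex I, and it overlapped those of complexes II, IV and V. Counted by DRACH motif, complex III did not stand out, with 5 of 350 listed (1.43%), compared with 1.23% in all 87 genes. The listed share was 0.506% in complex I (6 of 1185), 1.72% in complex II (2 of 116), 3.41% in complex IV (9 of 264) and 1.56% in complex V (7 of 449). The differences between complexes were not tested. Measured by sites rather than genes, the complexes held 12, 2, 7, 11 and 8, respectively.

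In complex I, the core subunits NDUFS8 and NDUFV2, which carry iron-sulphur clusters, had 1 site each, both in the 5′ UTR and within the first exon (scores 0.640 and 0.570). NDUFA2, an accessory subunit of the peripheral arm, had 2 sites in the CDS (0.661 and 0.506), of which the weaker lay 3 nt from a junction. NDUFA11 and NDUFA13, other accessory subunits, had 1 CDS site each, 37 and 17 nt from a junction, with scores of 0.513 and 0.621. The core subunits NDUFS1, NDUFS7 and NDUFV1 held none. NDUFS7, the subunit next to the quinone site, offered only 6 DRACH motifs, whereas NDUFS1, the largest core subunit, had 220 in its annotated transcript of 11660 nt.

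In complex II, SDHA, the flavoprotein that oxidises succinate, had 2 sites, at nucleotide 5 of its transcript (score 0.674) and in the 3′ UTR 78 nt after the start of the stop codon (0.777). The iron-sulphur subunit SDHB and the membrane anchors SDHC and SDHD held none among 23, 18 and 25 DRACH motifs.

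In complex III, the small accessory subunits UQCR10 (2 sites, scores 0.875 and 0.874), UQCR11 (0.874) and UQCRH, the hinge protein that contacts cytochrome c1 (0.780), had their sites in the 3′ UTR between 11 and 242 nt after the start of the stop codon. UQCRFS1, the Rieske iron-sulphur protein, had 1 site in its long last exon, 376 nt from the junction (0.789). By contrast, UQCRC1, a core protein of the matrix side, and UQCRQ, a small subunit, had 1 weak site each (0.530 and 0.519). The other core protein, UQCRC2, held none among 31 DRACH motifs.

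In complex IV, COX4I1, the widely expressed isoform of subunit 4, had CDS sites with scores of 0.770 and 0.642. COX6A1 and COX6B1, which sit at the dimer interface of the enzyme, each had 1 site in the CDS within 26 nt of a junction (0.534 and 0.531) and 1 in the 3′ UTR (0.641 and 0.714), and the COX6B1 site was the base directly after the stop codon. COX6C had 1 site in the 5′ UTR (0.614). Of 11 genes from several complexes listed as tissue-restricted or accessory forms, COX7A2L held sites (9.09%, 1.62 to 37.7). This interval includes the 26.4% of all 87 genes and the 19.6% of all protein-coding genes.

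In complex V, ATP5MC1, which encodes a copy of the membrane c-ring subunit, and ATP5MF, a subunit of the membrane part, had 1 site each in the 5′ UTR (scores 0.568 and 0.553). The alpha subunit ATP5F1A, the partner of ATP5F1B in the catalytic head, held none among 87 DRACH motifs, and neither did the gamma and epsilon subunits ATP5F1C and ATP5F1E.

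Along the transcript, a larger share of the respiratory chain sites lay in the 5′ UTR and close to exon junctions, and a smaller share in the 3′ UTR, than of the sites of other genes. Of the 40 sites, 37 lay in the canonical transcripts, and 0 lay in introns. The 5′ UTR held 8 of them (21.6%, 11.4 to 37.2), compared with 2.25% of the sites of other protein-coding genes, the CDS held 19 (51.4%, compared with 42.4%), and the 3′ UTR held 10 (27.0%, 15.4 to 43.0, compared with 55.3%). The last exon held 48.6% of the sites, compared with 75.7%. The sites of the 3′ UTR all lay within 313 nt after the start of the stop codon, with a median of 100.5 nt. Among the 16 sites with a score of at least 0.7, the 5′ UTR share was 6.25% (1 site) and the 3′ UTR share 50% (8 sites), compared with 0.923% and 64.4% in other genes. On the longest supported transcript of each gene the 5′ UTR share was 11.5%. Region was an input of the classifier, whose part in these shares was not tested.

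**Figure D2:**
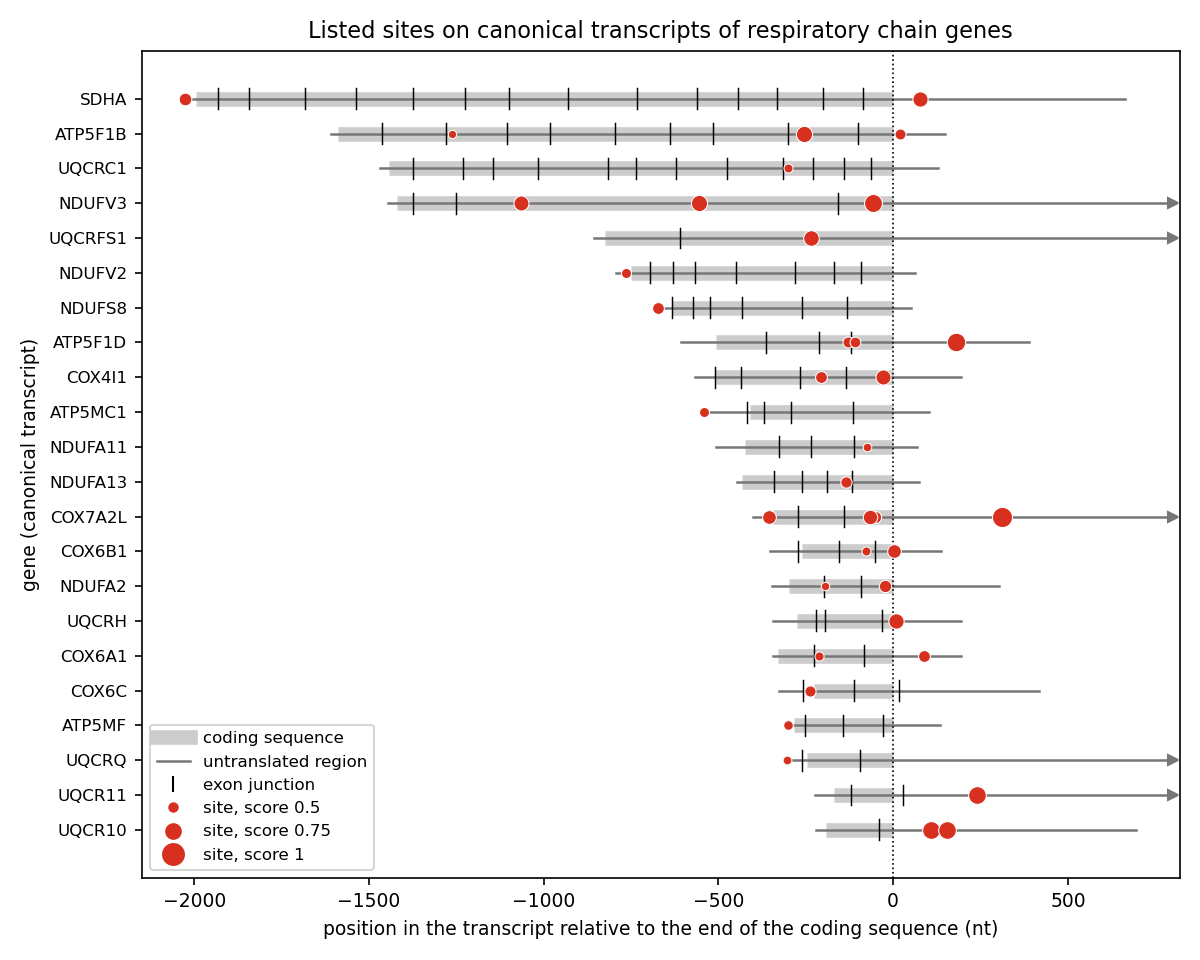
Listed sites (red circles, size by score) on the canonical transcripts of the 22 genes that hold them there, with position relative to the end of the coding sequence on the x axis in nt, exon junctions as ticks, and an arrow where the 3′ UTR runs on. Most 5′ UTR sites lie at the very start of the transcript, and the 3′ UTR sites lie within 313 nt of the start of the stop codon.

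Most of the 5′ UTR sites lay at the very start of the annotated transcript, where antibodies against m6A are known to bind m6Am as well, the related modification next to the cap. The list does not tell these modifications apart, and the part of m6Am in the sites at the start was not tested. Of the 37 sites, 5 lay within the first 20 nt (13.5%, 5.91 to 28.0), whereas only 29 of 18651 sites of other genes did (0.155%), and 7 lay within the first 50 nt (18.9%, 9.48 to 34.2, compared with 0.349%). In the shares of sites of other genes, a site counted once for each gene whose canonical transcript holds it. The following lines show the first 25 nt of the transcripts with a site in the first 20, again with the pentamer in capitals. This set was chosen after its values were seen.
ATP5MC1, chr17:48892787-48892811 (+ strand), site at nucleotide 4, score 0.568: aGGACAcgtgggtgggggaagctga
ATP5MF, chr7:99466143-99466167 (- strand), site at nucleotide 11, score 0.553: ggcacagcGGACAccaggactccaa
NDUFS8, chr11:68030681-68030705 (+ strand), site at nucleotide 13, score 0.64: gcctcccgatTGACTggcctgcttg
SDHA, chr5:218320-218344 (+ strand), site at nucleotide 5, score 0.674: agGGACTggcgggactgcgcggcgg
UQCRQ, chr5:132866642-132866666 (+ strand), site at nucleotide 3, score 0.519: GAACGagtcaaccggatcggtgact

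The adenosines of UQCRQ, ATP5MC1 and SDHA lay at nucleotides 3, 4 and 5 of the annotated transcripts. None of the 5 sites reached a score of 0.7, and the UQCRQ site was the only one outside DRACH. The ATP5MF and SDHA sites also lie in exons of overlapping genes on the same strand, and the UQCRQ site lies opposite an exon of GDF9. With NDUFV2 and COX7A2L, whose sites lie at nucleotides 31 and 45, the 7 genes came from every complex. COX6C, at nucleotide 89, was the only gene whose 5′ UTR site lay further in. The annotated start was taken from GENCODE, and the start used in C643 was not analysed. Without the sites of the first 50 nt, 18 of the 87 genes still held a site, and the 5′ UTR share fell to 3.33%.

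Close to an exon junction, within 100 nt of it, lay 23 of the 37 sites (62.2%, 46.1 to 75.9), compared with 13.99% of the sites of other genes. Without the sites of the first 50 nt of transcripts, the share was 56.7%. Within the CDS, 14 of 19 sites lay close to a junction (73.7%, 51.2 to 88.2), compared with 30.1% in other spliced genes. The scores were lower there, with a median of 0.604 for CDS sites close to a junction and 0.789 for those further away, and the same order held in other genes (0.657 and 0.723). Among the 16 sites with a score of at least 0.7, the share close to a junction was 31.3%, compared with 9.14% in other genes.

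Since short transcripts hold more of their sequence near a junction or near the start, the sites of short transcripts were compared as well. Among other genes with transcripts under 1000 nt, 33.9% of 632 sites lay close to a junction, 3.16% in the 5′ UTR and 3.01% in the first 50 nt. The 14 respiratory chain genes under 1000 nt with sites there had 71.4% of their 21 sites close to a junction (50.04 to 86.2), 23.8% in the 5′ UTR (10.6 to 45.1) and 19.0% in the first 50 nt. The genes for cytoplasmic ribosomal proteins, which are likewise short (median 848 nt), had 76.8% of 56 sites close to a junction but 1.79% in the first 50 nt. The genes for mitochondrial ribosomal proteins had 21.3% of 122 sites close to a junction and 0.820% in the first 50 nt.

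The scores of the respiratory chain sites had a median of 0.668 (range 0.503 to 0.970) compared with 0.754 for the whole list. In the 3′ UTR the median was 0.827, near that of other genes (0.801), while it was 0.642 in the CDS and 0.592 in the 5′ UTR (other genes, 0.707 and 0.625). A score of at least 0.7 was reached by 18 of the 40 sites (45%), compared with 62.9% of all sites. Counting these alone, 12 of the 87 genes held a site (13.8%, 8.07 to 22.6), compared with 17.1% of all protein-coding genes, so the order of the 2 shares depended on the score.

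As for sequence, DRACH was present at 32 of the 40 sites (80%, 65.2 to 89.5), compared with 88.7% of all sites. GGACT was the most frequent with 10 sites (25%, compared with 21.7%), before GGACC with 6 and GAACT with 4. Among the 8 sites outside DRACH were 2 each with GTACC (COX6B1 and UQCRC1), GTACT (ATP5F1B and NDUFA11) and GAACG (NDUFA2 and UQCRQ). GTACC made up 0.0585% of all sites, and both of its sites here scored close to 0.53 and lay within 26 nt of a junction.

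To see what the genes offered for modification, their canonical transcripts were compared with those of all protein-coding genes. They were short, with a median of 756 nt compared with 2885 nt, 4 exons compared with 8, and a 3′ UTR of 192 nt compared with 1018 nt. In all, 62.1% were under 1000 nt, compared with 10.6%. They held a median of 16 DRACH motifs compared with 54, of which 4 lay more than 100 nt from a junction, compared with 30. Their GC content was 47.5%, compared with 49.2%. The 5 genes with no motif more than 100 nt from a junction held 0 sites. They are too few to tell this from the 26.4% of all respiratory chain genes with a site. Among the listed DRACH motifs, 16 lay within 100 nt of a junction (1.79% of the motifs there) and 13 further away (0.886%). The order was the opposite in other genes with a site (2.54% and 10.96%) and in all other protein-coding genes (0.453% and 1.61%). These shares pool the regions. Within the CDS alone, the respiratory chain genes had the same order as both references (1.01% close to a junction and 7.14% further away). Of their 1468 motifs further away, 1365 lay in the 3′ UTR. Of the 16 listed motifs close to a junction, 6 lay in the 5′ UTR.

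Within the respiratory chain, genes with and without a site had similar medians of length and motif number and unequal medians of GC content. The 23 genes with a site had a median length of 857 nt, 17 DRACH motifs and a last exon of 277 nt, and the 64 genes without had 694 nt, 15 motifs and 298 nt. The medians of GC content were 52.5% and 46.1%, compared with 57.3% and 46.7% over all protein-coding genes. Across the 87 genes, Spearman's rho of the number of sites was 0.08 with length, 0.09 with DRACH motifs, 0.04 with motifs far from a junction, 0.01 with exon number and 0.21 with GC content. Over all 20046 genes it was -0.03, -0.08, -0.09, 0.04 and 0.39, respectively. With sites of a score of at least 0.7 alone, it was 0.20 with length, 0.22 with DRACH motifs, 0.18 with motifs far from a junction and 0.07 with GC content over the 87 genes, so the order of these weak values depended on the score. These correlations are across genes that share 1 list, and length, motif number and exon number go together.

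Length classes set the share of genes with a site beside that of other genes of like length. Between 500 and 1000 nt, where 41 of the 87 genes lie, 13 held a site (31.7%), compared with 16.3% of other genes. Between 1000 and 1500 nt it was 1 of 9, compared with 21.03%, and from 3000 nt on it was 2 of 10, compared with 17.5%. The share was also above that of other genes under 500 nt (2 of 13, 15.4%, compared with 6.98%). Between 1500 and 2000 nt it was 3 of 7 (42.9%, compared with 23.9%), and between 2000 and 3000 nt 2 of 7 (28.6%, compared with 24.1%). Other genes with the same mix of lengths had a site in 16.8% of cases, which corresponds to 14.6 genes where 23 were observed. With a score of at least 0.7, this share was 13.2%, or 11.4 genes where 12 were observed, so the difference was nearly gone. Over all scores, the corresponding numbers were 16.5 genes for the mix of DRACH numbers and 16.0 genes for the mix of GC contents. By GC content, 9 of 18 genes between 50 and 55% held a site (50%), compared with 27.8% of other genes, whereas between 55 and 60% it was 2 of 11 (18.2%), compared with 36.97%. All protein-coding genes include those silent in C643, and how far expression accounts for the difference was not tested.

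**Figure D3:**
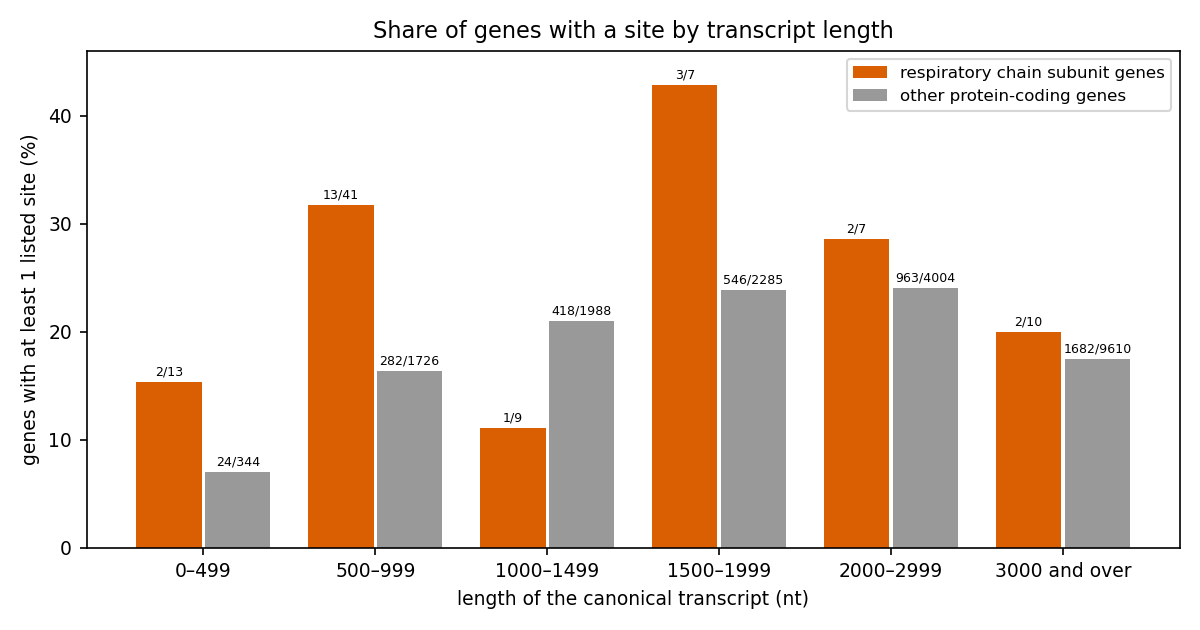
Share of genes with at least 1 listed site (y axis, %) by length of the canonical transcript (x axis, nt) for the respiratory chain subunit genes and other protein-coding genes, with the numbers of genes above the bars. Between 500 and 1000 nt it was 31.7% compared with 16.3%.

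Counted by motif, 29 of the 2364 DRACH motifs of the 87 transcripts were listed (1.23%, 0.855 to 1.76), compared with 1.18% of the motifs of other protein-coding genes and 7.45% of those in other genes with a site. Given the region, the distance from a junction and whether the motif is GGACT, 152.2 motifs would be listed at the rates of other genes with a site, an observed to expected ratio of 0.191. At the rates of all other protein-coding genes, 24.5 would be listed (ratio 1.18). The first reference leaves out genes without a site, which the 87 genes include, and the second includes genes that are not expressed, so these ratios bracket the comparison. For the 23 genes with a site against other genes with a site, 35.7 motifs would be listed (ratio 0.813), where each gene holds at least 1 site by construction.

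The rates by place are given against both references, since 64 of the 87 genes have no site and rates below those of genes with a site are in part built in. In the CDS more than 100 nt from a junction, 5 of 70 motifs were listed (7.14%, 3.09 to 15.7), compared with 17.7% in other genes with a site and 2.39% in all other protein-coding genes. Closer to a junction, 8 of 789 CDS motifs were listed (1.01%, 0.515 to 1.99), compared with 2.38% and 0.427%. In the 3′ UTR it was 9 of 1410 (0.638%, 0.336 to 1.21), which was below both references (9.18% and 1.40%). In the 5′ UTR close to a junction it was 6 of 62 (9.68%, 4.51 to 19.5), which was above both (2.11% and 0.306%). Apart from COX6C (nucleotide 89), these 6 motifs lay between nucleotides 5 (SDHA) and 45 (COX7A2L), in first exons of 53 to 128 nt. They are thus among the sites near transcript starts described above, and the part of m6Am in this share was not tested. Of the GGACT motifs, which 54 of the 87 genes contain, 8 of 107 were listed (7.48%, 3.84 to 14.1), compared with 26.2% and 5.60%, and 36 of these 54 genes held no site.

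**Figure D4:**
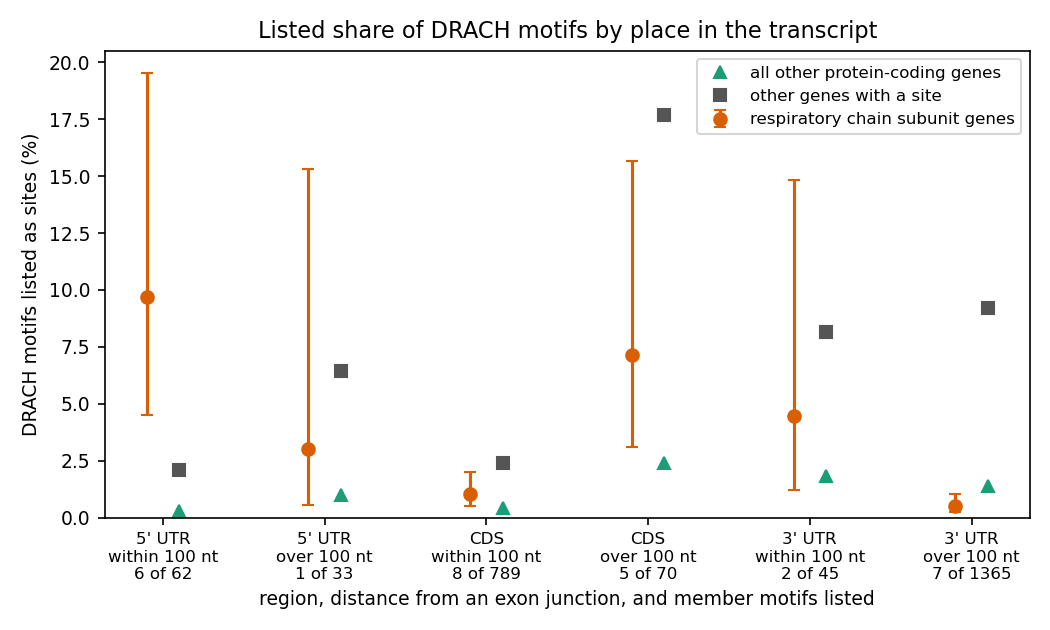
Share of DRACH motifs listed as sites (y axis, %) by region and distance from an exon junction (x axis, with the numbers of motifs), for the respiratory chain subunit genes (circles, bars are 95% Wilson intervals), other genes with a site (squares) and all other protein-coding genes (triangles). In the 5′ UTR close to a junction the circle (9.68%) lies above the square (2.11%) and the triangle (0.306%). Apart from COX6C, the listed respiratory chain motifs there lie between nucleotides 5 (SDHA) and 45 (COX7A2L) of their transcripts. In the 3′ UTR far from a junction the circle (0.513%) lies below the square and the triangle.

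Many of the 3′ UTR motifs lay in long annotated ends. A 3′ UTR of more than 1000 nt is annotated for 19 of the 87 genes, 5 of them with a site, and these genes hold 57.7% of the DRACH motifs. Of the 789 motifs more than 1000 nt after the start of the stop codon, 0 were listed, which allows a share of up to 0.3802% by 3 counts (Wilson upper limit 0.485%), compared with 2.72% in other genes with a site and 0.354% in all other genes. A share below that of genes with a site is in part built in, since only 5 of these 19 genes hold a site. A difference from all genes was not detectable with this number of motifs, which lie in few genes. Elsewhere, 29 of 1575 were listed (1.84%, 1.29 to 2.63), compared with 8.82% and 1.496%. The genes without a site that offered the most motifs were of this kind: NDUFS1 (220 motifs, 3′ UTR of 9368 nt), UQCRB, a complex III subunit at the quinone site (153, 8108 nt), NDUFA9, an accessory subunit that stabilises the junction of the arms of complex I (143, 7209 nt), NDUFA5, an accessory subunit of the peripheral arm (91, 5122 nt), and ATP5F1A (87, 4034 nt). Whether C643 cells use these long ends was not analysed here. Without these motifs the ratio was 0.239 against other genes with a site and 1.31 against all.

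Many respiratory chain genes have pseudogene copies, and reads that map to several places were not used by the authors. For 49 of the 87 genes the annotation names at least 1 pseudogene, 190 in all and up to 17 for COX6C. Of these, 12 held a site (24.5%), compared with 11 of 38 without a named pseudogene (28.9%). Sequence identity was not compared, and the part of the copies in the missing sites was not tested.

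The other genes of the pathway include the assembly factors, which insert cofactors and join the modules of the complexes. Of 59 assembly factor genes, 24 had a site (40.7%, 29.1 to 53.4, which overlaps the interval of the subunits), with 98 sites in all and a median of 3 per gene with a site. SDHAF1, which assists iron-sulphur insertion into SDHB, held 14 sites in a transcript of 1125 nt, while the 4 complex II subunits held 2 together. TMEM186, a complex I assembly factor, held 9. Of 12 regulators of mitochondrial biogenesis 4 had a site, led by PPRC1, a coactivator of the PGC-1 family, with 12 sites. In the citrate cycle, 7 of 14 genes had a site, among the electron carriers and quinone reductases, a list that includes CYC1 and NDUFAB1, 2 of 10, and among the 13 mitochondrially encoded subunits 1. The share was 36.8% for 87 genes of cytoplasmic ribosomal proteins (27.4 to 47.3) and 56.4% for 78 genes of mitochondrial ribosomal proteins (45.4 to 66.9), the latter above the interval of the respiratory chain genes. The listed share of DRACH motifs was 1.23% in the respiratory chain genes, 2.18% in the cytoplasmic and 4.32% in the mitochondrial ribosomal protein genes, and 3.11% in the assembly factor genes. These lists are compared by their counts only, and differences in expression between them were not analysed.

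**Figure D5:**
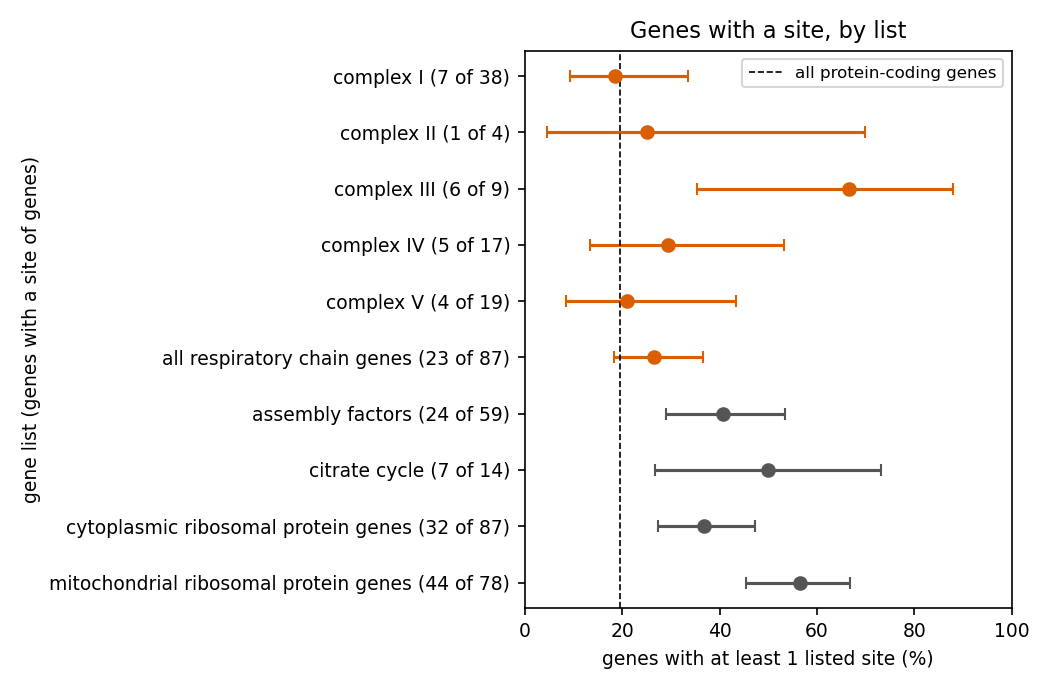
Share of genes with at least 1 listed site (x axis, %) with 95% Wilson intervals for each respiratory chain complex and other gene lists (y axis, with numbers of genes), and the share of all protein-coding genes as a dashed line. Mitochondrial ribosomal protein genes reached 56.4% and the respiratory chain subunit genes 26.4%.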

How the data were processed

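The authors aligned the miCLIP2 reads to GRCh38 with STAR (version 2.7.3a in the submitters' processing notes, with UMI-tools 1.0.0) and kept uniquely mapped reads. They called peaks with PureCLIP on each replicate and kept those found in at least 2 replicates. Peaks at adenosines were classified with m6Aboost, whose inputs include sequence and transcript region. The deposited score is a fraction between 0 and 1. Read depth is unknown, and its effect on which genes could hold a site was not analysed.

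Sites were counted for a gene when they lay in an exon of any of its GENCODE release 44 transcripts on its strand (the authors used release 31). Regions, lengths, GC content and motifs came from the Ensembl canonical transcript. Expected numbers summed the listed rates of reference genes over classes of region, junction distance (100 nt) and GGACT, checked on simulated data. Shares have 95% Wilson intervals, a count of 0 also the limit of 3 counts, computed with Python 3.11.15, numpy 2.4.6, scipy 1.17.1 and pysam 0.24.0. No test was run, since there is 1 group and 1 pooled list.

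Every gene with a site was named, the 5 with the most sites in detail, and of those without, core subunits (not all are reported here) and the 5 with the most DRACH motifs. Other lists name the 3 genes with the most sites. Members and lists were chosen with earlier results of these data known.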

Additional observations from a re-analysis of the deposited data

How the results depend on the processing

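Of 62 alternative values for 13 results, 48 were counted as unchanged, 12 moved and 2 turned direction. Both turns were for the ratio of observed to expected motifs. Outside the correlations, unchanged meant within 1.5 times the count or within the interval of the value reported. The correlations have no interval and were all counted as unchanged. At scores of at least 0.7, however, rho went from 0.08 to 0.20 with length and from 0.21 to 0.07 with GC content. The ratio turned from 0.191 to 1.18 at the rates of all protein-coding genes and to 1.31 when motifs more than 1000 nt after the stop codon were also left out. Keeping only scores of at least 0.7 left 12 genes (13.8%, below the 17.1% of all genes at that score) and 18 sites, a listed share of 0.677% of DRACH motifs, 50% of sites in the 3′ UTR, 6.25% in the 5′ UTR and 31.3% within 100 nt of a junction. The longest supported transcript left 26 sites, a listed share of 0.606% and a ratio of 0.110. GGACT alone had a listed share of 7.48%. The ratio was 0.813 for genes with a site on both sides. Without the first 50 nt of transcripts, 3.33% of sites lay in the 5′ UTR. Sites in exons of no other gene on the strand left 20 genes and 33 sites. The alternatives on overlapping genes, transcript starts, far 3′ UTR motifs, GC classes, genes with a site on both sides, and all those for the 5′ UTR and junction shares were chosen after seeing the data. Leaving out a replicate was not possible, because the list pools them. No paired analysis was possible because the single list pools 1 group. Read depth is unknown, and its effect on the counts was not analysed.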
